A study of Rattus norvegicus with 16 samples.

Results

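Grm2 (ENSRNOG00000013171), Galr1 (ENSRNOG00000016654) and Casr (ENSRNOG00000002265) encode 3 G protein-coupled receptors, and they are 3 of the 32883 genes listed in the counts. They were chosen by their measured levels in these same libraries, each being highest in another subfield: Grm2 in the dentate gyrus (DG), Galr1 in CA1 and Casr in CA2. The libraries came from male Wistar rats aged 3 months, for which no treatment or genetic change is described. The pyramidal layer of each CA subfield and the DG granule cell layer were cut out of brain sections by laser capture microdissection, and each subfield gave 4 libraries, numbered as replicates 1 to 4. A captured layer also holds the interneurons, glia and processes that lie in it, and with RNA from whole layers fewer cells of a type and less RNA per cell cannot be told apart.

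The receptor mGlu2, encoded by Grm2, belongs to the metabotropic glutamate receptors and couples to the inhibitory Gi/o proteins. In the hippocampus it is known from the mossy fibres, the axons of the granule cells, where it lowers glutamate release. Galr1 encodes a receptor for the neuropeptide galanin, which also acts through Gi/o and dampens excitatory transmission. Casr encodes the calcium-sensing receptor, a relative of the metabotropic glutamate receptors that reads extracellular calcium and couples to Gq/11 and Gi/o. It is best known for setting the release of parathyroid hormone, and in neurons it has been described at nerve terminals.

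The library totals ran from 3216512 to 11933279 reads counted on genes, and the limit set by an empty count (3 reads) was 0.260 to 0.931 CPM, the unit used here for counts scaled to the TMM-normalised library size. Such limits and the count intervals below cover counting error only and leave out the variation between rats. PCR copies of the same molecule count separately, so even the counting error may be larger than given. The counts of CA2 replicates 2 and 4 differed by a chi-square of 1.001 per degree of freedom, as sampling noise alone gives, and those of DG replicates 2 and 4 by 1.04, close to it, while the other 22 pairs of libraries within a subfield had 2.80 to 43.5. Each of these 2 pairs was therefore counted as 1 sample, which left 3 samples for CA2 and for DG beside the 4 of CA1 and of CA3, and 14 libraries in the tests. The subfield markers could be matched only through the study's marker list, which was picked from these same libraries for a higher level in 1 subfield. Their agreement with the labels follows in large part from that choice and is no independent check of the dissection. Prox1 was at 284 to 397 CPM in DG and at no more than 19.2 CPM elsewhere, Wfs1 at 612 to 778 CPM in CA1 and at no more than 134 CPM elsewhere, Amigo2 at 92.2 to 153 CPM in CA2 and at no more than 22.2 CPM elsewhere, and Fxyd7 at 66.5 to 87.8 CPM in CA3 and at no more than 13.96 CPM elsewhere.

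Grm2 was the receptor with the most reads, 894 of them in DG. The 4 DG libraries held 169, 278, 254 and 193 counts, equal to 30.9, 28.4, 30.5 and 33.2 CPM in replicates 1 to 4. The mean was 30.7 ± 0.185 CPM (SD, n = 3), a spread that is narrow because the repeated replicates 2 and 4 lay on either side of the others and were averaged. The DG libraries lay far above all the others, and the highest library elsewhere was CA1 replicate 4.

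In CA1 the replicates held 23, 13, 23 and 11 Grm2 counts, or 2.38, 1.20, 2.67 and 3.41 CPM, with a mean of 2.42 ± 0.920 CPM (SD, n = 4). CA2 held 3, 8, 9 and 14 counts, or 0.470, 1.88, 0.930 and 2.53 CPM, with a mean of 1.20 ± 0.897 CPM (SD, n = 3). CA3 held 1, 5, 2 and 11 counts, or 0.124, 0.433, 0.212 and 1.79 CPM, with a mean of 0.639 ± 0.777 CPM (SD, n = 4). The CA1 and CA2 libraries overlapped, and CA3 replicate 4 lay above CA1 replicate 2, whereas the other CA3 libraries lay below every CA1 library.

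The order of Grm2 was thus DG, CA1, CA2 and CA3. As a description of the contrasts that chose the gene, the log2 fold change was -3.78 in CA1vsDG (standard error 0.33), -4.54 in CA2vsDG (0.39) and -5.77 in CA3vsDG (0.40), the first subfield over the second. The summed counts gave a DG level 14.0 times that of CA1 (95% exact interval 10.99 to 18.2), 23.1 times that of CA2 (16.4 to 33.6) and 56.3 times that of CA3 (35.8 to 94.0).

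Galr1 had 206 counts in all, of which 149 were in CA1. The CA1 replicates held 73, 35, 31 and 10 counts, equal to 7.55, 3.23, 3.60 and 3.10 CPM, with a mean of 4.37 ± 2.13 CPM (SD, n = 4). Replicate 1 stood far above the other CA1 libraries, and the lowest CA1 library was still above every library of the other subfields. Without replicate 1 the CA1 mean was 3.31 CPM.

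CA3 came next for Galr1, with 14, 10, 10 and 5 counts or 1.73, 0.866, 1.06 and 0.813 CPM and a mean of 1.12 ± 0.424 CPM (SD, n = 4). CA2 held 2, 3, 3 and 2 counts, or 0.314, 0.704, 0.310 and 0.361 CPM, with a mean of 0.385 ± 0.127 CPM (SD, n = 3). DG held 1, 3, 0 and 4 counts, or 0.183, 0.306, 0 and 0.687 CPM, with a mean of 0.227 ± 0.251 CPM (SD, n = 3). The lowest CA3 library, at 0.813 CPM, was only just above the highest libraries of CA2 and DG, at 0.704 and 0.687 CPM. The share of all genes with such a separation was not counted. The CA2 and DG libraries overlapped near the limit of detection.

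For the contrasts that chose Galr1, the log2 fold change was 3.49 in CA1vsCA2 (standard error 0.51), 2.0 in CA1vsCA3 (0.39) and 4.01 in CA1vsDG (0.54). Without CA1 replicate 1 the value over CA3 was 1.56. The summed counts gave a CA1 level 11.92 times that of CA2 (95% exact interval 6.30 to 25.4), 4.16 times that of CA3 (2.91 to 6.08) and 17.0 times that of DG (8.38 to 39.99).

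Casr was the least covered of the receptors, with 138 counts in all and 101 in CA2. The CA2 replicates held 31, 12, 42 and 16 counts, equal to 4.86, 2.81, 4.34 and 2.89 CPM, with a mean of 4.02 ± 1.04 CPM (SD, n = 3). The lower values were those of the repeated replicates 2 and 4, and they were still above every library outside CA2.

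In CA1 the replicates held 2, 10, 9 and 1 Casr counts, or 0.207, 0.924, 1.05 and 0.310 CPM, with a mean of 0.622 ± 0.424 CPM (SD, n = 4). CA3 held 2, 7, 2 and 2 counts, or 0.248, 0.606, 0.212 and 0.325 CPM, with a mean of 0.348 ± 0.179 CPM (SD, n = 4). In DG 3 libraries held no count and replicate 4 held 2, or 0.344 CPM. CA1 replicates 2 and 3 stood above the other CA1 libraries, which lay within or close to the range of CA3, and the DG libraries were all at or below the limit of detection.

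For the contrasts that chose Casr, the log2 fold change was -2.55 in CA1vsCA2 (standard error 0.44), 3.40 in CA2vsCA3 (0.47) and 5.62 in CA2vsDG (0.68). The last rests on the 2 counts of DG, and with these summed counts the CA2 level was 57.4 times that of DG with a 95% exact interval from 15.5 to 481. Over CA1 the ratio was 5.74 (3.59 to 9.56) and over CA3 it was 10.6 (5.91 to 20.5).

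**Figure D1:**
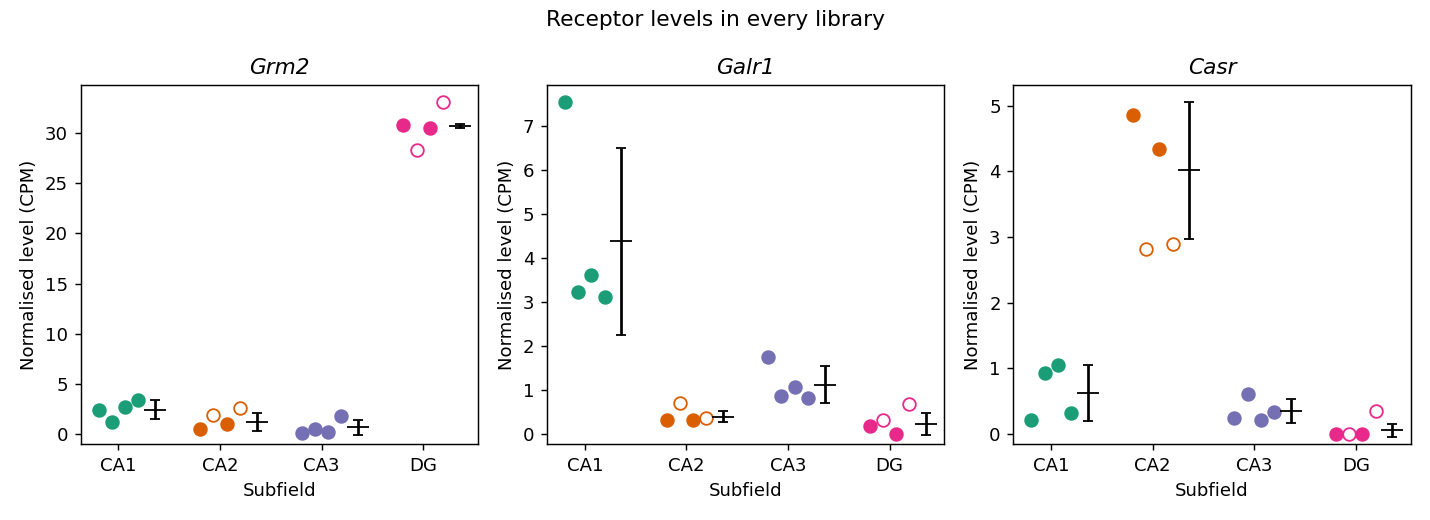
Normalised level in CPM (vertical axis, linear, its own scale in each panel) of Grm2, Galr1 and Casr in each library of the 4 subfields (horizontal axis), replicates 1 to 4 from left to right. Open circles are the repeated libraries, counted as 1 sample, and black marks with bars are the mean and SD (4 samples in CA1 and CA3, 3 in CA2 and DG). DG stands apart for Grm2 at 28.4 to 33.2 CPM, CA2 for Casr at 2.81 to 4.86 CPM, and CA1 for Galr1 at 3.10 to 7.55 CPM with replicate 1 far above the rest.

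Each receptor had every library of its highest subfield above every other library. Among all 17174 genes tested this held for 3.32% in CA1, 2.17% in CA2 and 10.8% in DG, and since it is the property by which the receptors were picked, nothing is read from it.

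The contrasts among the remaining subfields, 3 for each receptor and 9 in all, did not enter the choice and were tested. The test was edgeR's quasi-likelihood test over all 17174 genes, with Benjamini-Hochberg adjustment and genes called at an adjusted p under 0.05. Of the 9 contrasts 3 were called, and among all genes 7.65% were called in CA2vsCA3, 14.3% in CA1vsCA2, 24.8% in CA1vsCA3, 29.4% in CA1vsDG, 35.4% in CA2vsDG and 40.2% in CA3vsDG.

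Grm2 was more abundant in CA1 than in CA3, by 1.99 ± 0.52 (SE) on the log2 scale, with an adjusted p of 0.00718 in edgeR. Over the fits that each omitted 1 library the value ran from 1.68 to 2.96, the highest without CA3 replicate 4, and its adjusted p from 0.000291 to 0.0324. CA2 was not separated from either neighbour, at 0.76 in CA1vsCA2 (95% interval -0.23 to 1.76, adjusted p = 0.339 in edgeR, and 1.59 without CA2 replicates 2 and 4) and 1.23 in CA2vsCA3 (-0.03 to 2.48, adjusted p = 0.292 in edgeR). The last value depended on single samples in both directions. Without CA3 replicate 4, the highest CA3 library, it was 2.18 with an adjusted p of 0.0312 in edgeR, and without CA2 replicates 2 and 4 it was 0.41 with an adjusted p of 0.886. With the replicate block, in which the replicate number stands for the rat, it was 1.62 (adjusted p = 0.0485 in edgeR) where the repeated libraries took the lower of their numbers and 0.93 (adjusted p = 0.294) where they took the higher.

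Galr1 was more abundant in CA3 than in DG, by 2.01 ± 0.63 (SE) on the log2 scale, with an adjusted p of 0.0138 in edgeR. This call was lost without DG replicate 3, the library with no Galr1 count, at 1.52 with an adjusted p of 0.0629, and without DG replicates 2 and 4, which hold 7 of the 8 DG counts, the value was 3.65. In CA2vsCA3 the log2 fold change was -1.49 (95% interval -2.74 to -0.24), and its unadjusted p of 0.0214 became 0.163 after adjustment over all genes in edgeR. CA2 and DG could not be told apart at this depth, with 10 and 8 counts in all and a log2 fold change of 0.52 (95% interval -1.14 to 2.19, adjusted p = 0.660 in edgeR).

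Casr was more abundant in CA1 than in DG, by 3.07 ± 0.84 (SE) on the log2 scale, with an adjusted p of 0.00808 in edgeR. Without DG replicates 2 and 4 the fitted value was 5.49, and DG then held no Casr count, so that it is no measure of the fold. Because DG held only 2 counts, the fold is loosely known, and the summed counts gave a ratio of 10.01 with a 95% exact interval from 2.46 to 87.8. In CA3vsDG the log2 fold change was 2.22 (95% interval 0.29 to 4.14, adjusted p = 0.0619 in edgeR), on 13 and 2 counts. It passed the threshold without DG replicates 2 and 4 (log2 fold change 4.64, adjusted p = 0.0445) and without CA1 replicate 1 (2.20, adjusted p = 0.0470). In CA1vsCA3 it was 0.86 (95% interval -0.34 to 2.05, adjusted p = 0.309 in edgeR).

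**Figure D2:**
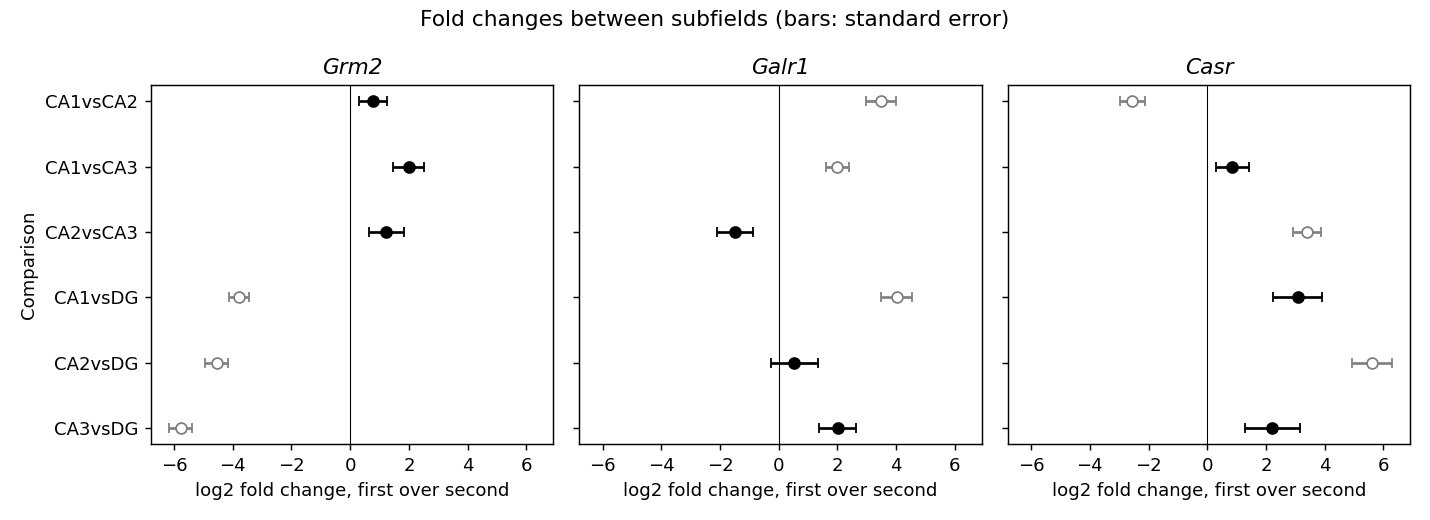
Log2 fold change of each receptor (horizontal axis, first subfield over second, edgeR) in the 6 comparisons (vertical axis), with bars of 1 standard error. Open grey points are the contrasts that chose the receptor, and filled black points are the 9 that did not, of which Grm2 in CA1vsCA3 at 1.99, Galr1 in CA3vsDG at 2.01 and Casr in CA1vsDG at 3.07 were called.

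The levels outside the highest subfield were set beside subfield markers measured in the same libraries, each as a percentage of its mean in the subfield it marks. Grm2 in CA1 was at 3.91% to 11.1% of its DG mean, while the DG markers Prox1, a transcription factor of granule cells, and C1ql2, a secreted synaptic protein of the mossy fibres, were at 0.655% to 1.38% and 0.309% to 0.550%. A further DG marker, the desmosomal gene Dsp, was at 4.87% to 14.7% in the same CA1 libraries. In CA3 replicate 4, the CA3 library with the most Grm2, Grm2 was at 5.82% of its DG mean, Prox1 at 5.52% and C1ql2 at 3.60%, each the highest of CA3. The other CA3 libraries had Prox1 at 0.928% to 2.82% and C1ql2 at 2.35% to 3.45%, and Dsp was not highest in replicate 4. How much DG tissue contributed to that library was not tested.

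Galr1 in CA3 was at 18.6% to 39.7% of its CA1 mean, above its 7.09% to 16.1% in CA2. Of the CA1 markers, Wfs1, a protein of the endoplasmic reticulum, was at 1.27% to 15.7% in CA3 and 7.90% to 19.6% in CA2, so that its range reached lower in CA3 than in CA2. Pex5l, which encodes a regulator of HCN channels, was at 11.8% to 20.6% in CA3 and 13.6% to 32.4% in CA2. In CA3 replicate 1, which had the most Galr1 of CA3, Wfs1 was at 1.27% and Pex5l at 11.8%, each the lowest of CA3. CA3 replicate 2 had the most Wfs1 and Pex5l of CA3, and its Galr1 was at 19.8%.

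Casr in CA1, on only 1 to 10 counts per library, was higher in the libraries with more of the CA2 markers Cacng5 and Amigo2. Both markers are among the named genes most like Casr over these same libraries, so the values are a description only. CA1 replicates 2 and 3, with Casr at 23.0% and 26.0% of its CA2 mean, had Cacng5, an auxiliary subunit of AMPA receptors and calcium channels, at 15.8% and 18.1% and the adhesion gene Amigo2 at 16.7% and 10.5%. CA1 replicates 1 and 4, with Casr at 5.15% and 7.72%, had Cacng5 at 4.46% and 5.24% and Amigo2 at 4.64% and 6.22%. The contribution of CA2 tissue to the CA1 libraries was not tested. In CA3 Amigo2 was at 14.7% to 17.8% in every library, Cacng5 at 2.93% to 6.40% and Casr at 5.28% to 15.1%.

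**Figure D3:**
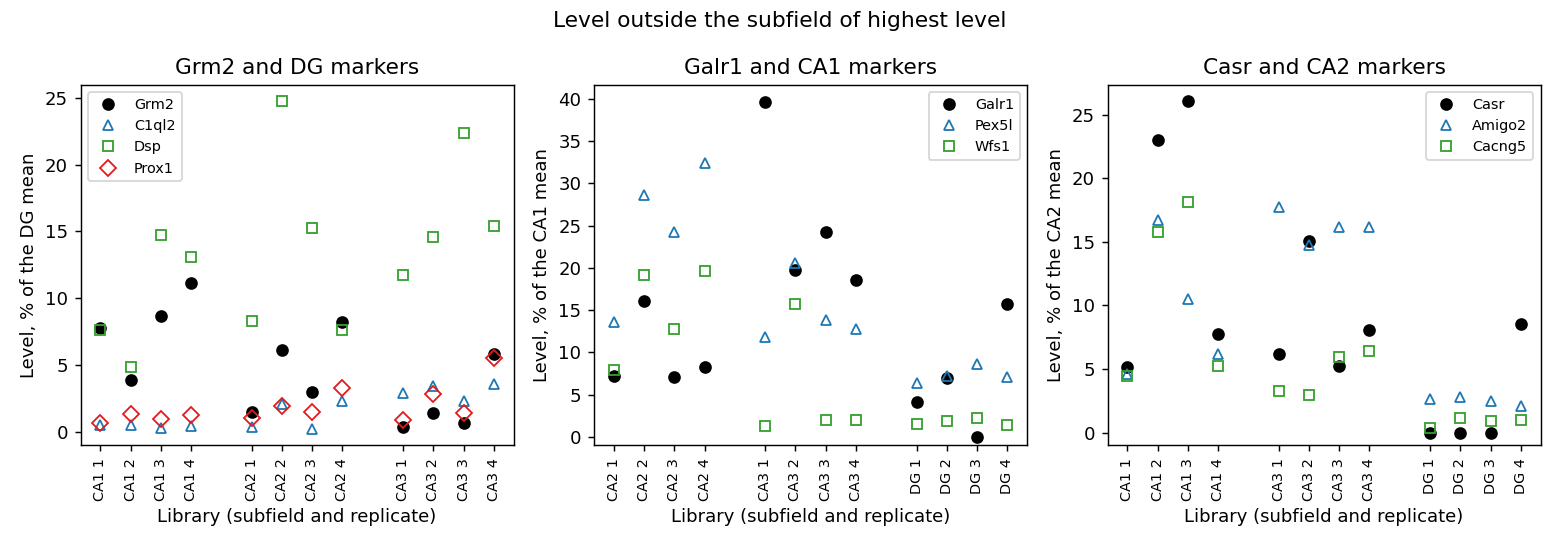
Level of each receptor (filled circles) and of markers of its highest subfield (open symbols) in the libraries of the other subfields, as a percentage of the mean in that highest subfield (vertical axis), by subfield and replicate (horizontal axis). Grm2 lies above Prox1 and C1ql2 in every CA1 library but below Dsp in CA1 replicates 2, 3 and 4. Galr1 in CA3 replicate 1 reaches 39.7% with Wfs1 at 1.27%, and Casr in CA1 is high in the replicates 2 and 3 in which Cacng5 is high too.

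The genes whose pattern was most like that of each receptor were taken by Pearson's r of log2 CPM over the 14 libraries, among the 266 tested genes that could be named. These names come from the study's own list of marker genes, so they favour genes of 1 subfield, and the correlations describe the same differences between subfields that chose the receptors. The libraries within a subfield entered r too. Likeness of the named genes in the order of subfields or in single libraries therefore follows in part from how they were taken. Grm2 itself had r above 0.9 with 268 of the other 17173 genes, Casr with 30 and Galr1 with 19.

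For Grm2 the nearest named genes were Pdyn with r = 0.973, Pitpnm2 with 0.971, Rgs9 with 0.968 and the phosphodiesterase genes Pde1b and Pde7b with 0.967 each. Pdyn encodes prodynorphin, the precursor of the opioid peptides of the mossy fibres, and averaged 186 ± 30.8 CPM over the 3 DG samples. Its means ± SD were 10.5 ± 1.18 CPM for CA1, 2.599 ± 1.30 CPM for CA2 and 2.26 ± 2.42 CPM for CA3. Like Grm2, Pdyn was highest among the CA3 libraries in replicate 4, at 5.85 CPM against 0.636 to 1.30 CPM. Rgs9, which speeds the shut-off of Gi/o proteins, averaged 19.1 ± 2.0 CPM in DG, against 2.93 ± 0.232 CPM for CA1, 2.27 ± 1.45 CPM for CA2 and 0.688 ± 0.199 CPM for CA3 (mean ± SD). All 5 genes had the order of means DG, CA1, CA2 and CA3 that Grm2 had. Nothing is read from this order, because the genes were taken by their likeness to Grm2. Pitpnm2, a phosphatidylinositol transfer protein, had nearly the same mean in CA2 and CA3, at 41.2 and 40.2 CPM.

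For Casr the nearest gene of all 17173 was Cacng5 with r = 0.965, followed by Sfrp2, a secreted antagonist of Wnt signalling, with 0.963. Gabra6, the alpha6 subunit of the GABA-A receptor, had r = 0.934, Papln, a protein of the extracellular matrix, 0.930 and Amigo2 0.920. Sfrp2 averaged 32.4 ± 7.36 CPM over the CA2 samples and 5.80 ± 2.93 CPM over those of CA1, with 8.03 and 8.02 CPM in CA1 replicates 2 and 3 and 1.86 and 5.27 CPM in replicates 1 and 4. Gabra6 had 5.03 ± 0.657 CPM in CA2 (SD, n = 3) and was at no more than 1.20 CPM in any library elsewhere. As for Casr, CA1 replicates 2 and 3 were the highest CA1 libraries for each of these 5 genes. They were taken by their likeness to Casr over the same libraries. The share of all genes with this order in CA1 was not counted, so nothing is read from it.

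For Galr1 the named genes were less close. Cbln1, a synapse organiser, had r = 0.869, the growth factor gene Epgn 0.861, and Cd3e, Ldb2 and Cdh6 0.859 each, and the first of them stood only at rank 53 of all genes. Ldb2, a cofactor of LIM domain transcription factors, had 107 ± 8.95 CPM in CA1 (SD, n = 4) and no more than 27.6 CPM in any other library. CA1 replicate 1, the library of highest Galr1, was also the highest of CA1 for 3 of these 5 genes, with Cd3e at 19.2 CPM against 6.98 to 13.5 CPM, Ldb2 at 117 CPM against 98.0 to 112 CPM and Epgn at 8.69 CPM against 7.14 to 8.31 CPM. It was not the highest for Cbln1, with 4.97 CPM against 5.17 CPM in replicate 2, nor for Cdh6, for which it was the lowest of CA1. These genes were taken by their likeness to Galr1 over the same libraries. The share of all genes highest in that library was not counted, so nothing is read from the 3 of 5. Cd3e, which encodes a chain of the T cell receptor complex, averaged 12.02 ± 5.57 CPM over the CA1 samples, and its means elsewhere lay between 0.0400 CPM (DG) and 0.627 CPM (CA3).

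Of the 58 genes of the receptor families and G protein pathways drawn up for comparison, 5 could be matched to an identifier, namely the 3 receptors, Gnal and Adcy1. Gnal encodes the stimulatory G protein subunit alpha-olf and Adcy1 a calcium-stimulated adenylyl cyclase, the enzyme that Gi/o proteins inhibit. Both were picked by the study for their level in DG in these libraries, so their values are no independent evidence of it. Gnal averaged 97.2 ± 8.87 CPM in DG, and its means ± SD were 10.5 ± 3.63 CPM for CA3, 8.45 ± 1.03 CPM for CA2 and 5.90 ± 1.69 CPM for CA1. Adcy1 averaged 863 ± 92.2 CPM in DG, and its means ± SD were 135 ± 18.2 CPM for CA2, 82.1 ± 17.2 CPM for CA1 and 47.6 ± 21.3 CPM for CA3. Grm2 and these genes shared DG as their highest subfield and differed in the order of the pyramidal subfields.

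The study's marker list names 15 G protein-coupled receptors other than olfactory ones, and the ratio of the highest to the next subfield was taken for each as a description. It is a ratio of mean CPM and so differs from the ratios of summed counts given above. The list was itself cut by the fold over the other subfields in these libraries, so the lowest ranks lie near that limit. Grm2, at 12.7, was second to the adrenergic receptor Adra2b at 16.4, which had only 68 counts in all. Casr, at 6.46, was sixth, between Brs3 at 9.59, with only 47 counts in all, and Trhr at 5.65. Galr1, at 3.91, was last, after the dopamine receptor Drd1 at 4.13. Casr was the single receptor of this list with CA2 as its highest subfield. For Grm2 and Casr the next subfield was CA1, and for Galr1 it was CA3.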

How the data were processed

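RNA from 4 microdissected hippocampal subfields of 4 rats was sequenced by the authors as stranded total RNA libraries. They aligned the reads with STAR to the Ensembl rat genome Rnor6 and deposited raw read counts per Ensembl gene, without normalization. The counter and its strand setting are not given in the sources used here, so reads of overlapping or antisense genes may be shared. The deposited tables of the authors' own comparisons (DESeq2 fold changes and p-values) were not used. All 16 columns of counts were mapped to a sample by their names.

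The 3 genes and all lists were chosen with earlier results of these data known. Columns of a subfield with a chi-square under 1.5 per degree of freedom (genes with 10 or more counts) were summed, which left 14 libraries. Genes with more than 10 counts in all were tested with edgeR 4.0.16 (R 4.3.3), TMM normalization, 1 coefficient per subfield and Benjamini-Hochberg adjustment, without a term for the rat. Standard errors were taken as the log2 fold change over the root of the F statistic, and CPM used TMM over the 16 columns, and a mean takes a repeated pair as 1 replicate. Intervals for ratios of summed counts are exact binomial (95%), with repeated columns included. Log2 CPM for correlations used a prior count of 2. The fit was tested on simulated counts with 1 spread for all genes, narrower than that fitted for the 3 receptors, so it was no test of their contrasts. The replicate number was taken to stand for the rat, though the labels do not name the rats. Same-numbered libraries had a median correlation of deviations of 0.248 (24 pairs), against -0.0863 for the other 72. The pairs of replicate 1 had 0.579 to 0.667. The remaining same-numbered pairs ran from -0.116 to 0.421 and overlapped those of different numbers, which reached 0.406. Where the repeated pairs belong among the rats is unknown. Whether the replicates were separate preparations is not stated.

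Symbols come from 288 identifiers that the study's marker list pairs with names, which cover 5 of the 58 list genes and 9 of the 50 cell type markers, with no glial, interneuron or vascular marker among them (not analysed here). The genes named are the 3 receptors, list genes with an identifier, the 5 most alike genes of each receptor (identifiers beginning with AABR left aside) and markers. The marker list's other receptors were picked after the files were seen. No genome positions are given, because the gene table at hand is of another build. The alternatives comprised fits without the low-count filter or with filterByExpr, size factors by median of ratios, DESeq2 (version 1.42.0), 16 separate columns, the replicate block, fits of 2 subfields alone and leaving out each library. A further matched marker is not reported here.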

Additional observations from a re-analysis of the deposited data

Results flagged for a closer look

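Galr1 in CA1 replicate 1 stood apart from the other CA1 libraries, with 7.55 CPM against 3.10 to 3.60 CPM. Its gap to the next library was 0.887 of the range, above Dixon's 95% critical value for 4 samples. Of the 6 groups of 4 samples examined (3 receptors in CA1 and CA3) it was the only one past that value, which chance alone also passes in some groups. The library rests on 73 counts, and of the CA1 markers in it Wfs1, at 778 CPM, was the highest of the CA1 libraries and Pex5l, at 293 CPM, the lowest. Without it the log2 fold change of Galr1 was 3.06 in CA1vsCA2 and 1.56 in CA1vsCA3. The same-numbered CA3 library was also the highest of CA3 for Galr1, at 1.73 CPM against 0.813 to 1.06 CPM. In CA2 and DG replicate 1 was not the highest, at 0.314 and 0.183 CPM. A contribution of the rat was not tested.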

How the results depend on the processing

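No fold change of the 3 receptors changed sign in any alternative, and for the contrasts not used by the choice 202 alternative values kept their side of the threshold in edgeR or DESeq2, while 4 rose past it and 1 fell below it. With the replicate block, Grm2 in CA2vsCA3 passed it at 1.62 in 1 of 3 versions and Casr in CA2vsCA3 moved to 3.80 in another, and no other call changed with the block. With median-of-ratios size factors the DG mean of Grm2 was 31 CPM, beyond its narrow SD. Over the fits that each omitted 1 library, Grm2 ran on the log2 scale from 0.41 to 2.18 in CA2vsCA3, from -5.37 to -4.27 in CA2vsDG (most without CA2 replicates 2 and 4) and from -6.74 to -5.48 in CA3vsDG (most without CA3 replicate 4). That of Galr1 ran from 3.06 to 3.81 in CA1vsCA2, from 3.52 to 5.64 in CA1vsDG (most without DG replicates 2 and 4) and from 1.52 to 3.65 in CA3vsDG. That of Casr ran from 3.19 to 3.90 in CA2vsCA3 (most without CA3 replicate 2), from 5.19 to 8.04 in CA2vsDG from 1.71 to 4.64 in CA3vsDG and from 2.64 to 5.49 in CA1vsDG, the last 3 highest without DG replicates 2 and 4, which leaves DG with no Casr count. The cause of the other changes was not tested. Over all genes and the 14 libraries, CA2vsCA3 had 1313 calls without the replicate block and 2028 to 2219 with it. CA1vsCA2 had 2458 without it and 3290 to 3545 with it. With 16 separate columns, CA2vsCA3 had 1737 calls without and 2615 with the block, and CA1vsCA2 had 2858 and 3850. The counts limit Casr and Galr1 most, with 2 and 8 counts in DG. The planned counts over the receptor and signalling lists were not run, because too few of their genes had an identifier.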
